A study of Mus musculus with 15 samples.

Results

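Expression of 9 genes of serine synthesis and folate one-carbon metabolism was examined in cultured white adipocytes kept at a cool temperature. The genes were *Phgdh*, *Psat1*, *Psph*, *Shmt1*, *Shmt2*, *Mthfd1*, *Mthfd1l*, *Mthfd2* and *Aldh1l2*, chosen by name from a count table of 18804 genes, and 9 of 9 were among the 14293 genes with enough counts to be tested. Adipocytes were differentiated from mesenchymal stem cells of C57BL/6J mice and were harvested 16 days after differentiation began. Cells of the day 0 group were kept at 37°C for the whole culture, those of the day 1 group were transferred to 31°C on day 15 and those of the day 12 group on day 4, so the groups shared an age in culture but not the stage at which they were cooled. Each group had 5 libraries, 15 in all, and the sources do not say whether these came from separate mice or dishes, so p-values measure only the spread between libraries, which may be technical. All groups had received an adipogenic mix that the methods describe as methylisobutylxanthine, dexamethasone, insulin and a thiazolidinedione. The labels name the last as troglitazone, and the methods name rosiglitazone and troglitazone in different sections. The cells were a bulk culture, in which fewer cells of a type and less RNA per cell cannot be told apart.

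The serine synthesis pathway makes serine from a glycolytic intermediate, 3-phosphoglycerate. PHGDH oxidizes 3-phosphoglycerate, PSAT1 transfers an amino group from glutamate to the product, and PSPH removes the phosphate to release serine. The SHMT enzymes then split serine into glycine and a one-carbon unit carried on tetrahydrofolate, SHMT1 in the cytosol and SHMT2 in mitochondria. In mitochondria MTHFD2 and MTHFD1L carry the unit on to formate, and ALDH1L2 oxidizes it to carbon dioxide with the production of NADPH. MTHFD1 is the trifunctional cytosolic enzyme that takes up formate, and its one-carbon units serve the synthesis of purines and thymidylate. Transcription of several of these genes is known to respond to ATF4, a factor of the amino acid and stress responses, and to MYC.

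The promoters of the 3 serine synthesis genes are shown because these genes moved in the same direction with cooling. Each is the 250 bases before the first RefSeq start (GRCm38.p6), 5′ to 3′ on the gene's minus strand. *Phgdh* is at chr3:98339970-98340219, *Psat1* at chr19:15925060-15925309, which is 1 of 2 starts listed, and *Psph* at chr5:129787254-129787503. The *Psat1* window lies within the GENCODE span of that gene given below, which begins further upstream. Capitals mark CCAAT, or its reverse complement ATTGG, and in *Phgdh* also 1 match to TGACNNNGC, the core of the antioxidant response element, on the opposite strand.
Phgdh: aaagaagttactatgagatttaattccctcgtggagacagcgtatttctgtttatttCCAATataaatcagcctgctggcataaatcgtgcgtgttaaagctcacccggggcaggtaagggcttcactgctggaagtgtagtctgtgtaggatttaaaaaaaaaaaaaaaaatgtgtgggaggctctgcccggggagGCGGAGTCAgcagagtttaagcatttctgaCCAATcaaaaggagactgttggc
Psat1: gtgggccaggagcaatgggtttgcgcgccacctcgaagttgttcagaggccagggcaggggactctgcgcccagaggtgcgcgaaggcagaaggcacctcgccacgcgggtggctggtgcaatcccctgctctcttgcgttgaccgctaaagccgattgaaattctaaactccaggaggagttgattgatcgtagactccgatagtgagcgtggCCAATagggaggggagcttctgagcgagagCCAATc
Psph: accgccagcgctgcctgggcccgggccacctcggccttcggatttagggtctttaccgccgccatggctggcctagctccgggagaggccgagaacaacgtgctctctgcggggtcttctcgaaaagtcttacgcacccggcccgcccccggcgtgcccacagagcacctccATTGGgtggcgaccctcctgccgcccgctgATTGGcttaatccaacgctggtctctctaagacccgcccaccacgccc
CCAAT was present on either strand in windows from 250 bases before to 50 bases after the start of *Phgdh*, *Psat1*, *Psph*, *Shmt1*, *Mthfd1* and *Mthfd2*, which is 6 of the 8 genes with a window in the table, while 37.4% of all 32851 promoters held it. *Aldh1l2* was the gene without a window. TGATGNAA, the core of the C/EBP-ATF response element, was in 0 of 8 and in 3.97% of all promoters, and the E-box CACGTG was in 0 of 8 and in 7.15% of all. TGACNNNGC was in *Phgdh* and *Psph* and in 12.4% of all promoters, and GCGCANGC, a part of the NRF1 motif, was in *Shmt2* and at the other *Psat1* start and in 9.95% of all. The motifs searched do not contain each other, and a match is a description of these letters alone.

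Library totals ranged from 64648178 to 133270973 counts, and the 9 genes had between 283 and 10587 counts in every library. Levels are given as CPM, counts scaled to a common library size by the TMM factors of edgeR, and levels of different genes were compared only as CPM per kilobase of merged GENCODE exons. Adipocyte identity was checked on 10 marker genes, all of which were tested, and their summed level, most of it from *Lpl*, *Fabp4* and *Adipoq*, was 4710 to 5325 CPM at day 0, 5685 to 6273 at day 1 and 5132 to 5720 at day 12. Within this sum the markers moved in opposite directions, with 2 called higher and 4 lower at day 12 against day 0. The receptor gene *Adrb3* fell by 6.10 on the log2 scale, the lipid droplet gene *Cidec* by 1.59 and the adipokine gene *Adipoq* by 1.24, while *Fabp4*, a fatty acid carrier, and *Pnpla2*, a lipase, both chosen after their values were seen, rose by 0.97 and 0.73. A gene was called higher or lower at a Benjamini-Hochberg adjusted p under 0.05 in the quasi-likelihood test of edgeR together with a fold change over 1.5, which is 0.585 on the log2 scale.

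At day 12 the *Phgdh* and *Psat1* genes rose to more than 3 times their day 0 levels, *Psph* rose by less, and *Aldh1l2* fell. After 1 day *Phgdh* and *Psph* had already risen and *Aldh1l2* had fallen further than it had at day 12. The folate enzymes *Shmt1*, *Shmt2*, *Mthfd1*, *Mthfd1l* and *Mthfd2* passed the fold limit in none of the 3 comparisons. Comparing day 1 with day 0, 2 of the 9 genes were called higher, where 7.71% of all genes tested were, and 1 was called lower, where 13.4% of all were. At day 12 against day 0, 3 were called higher beside 13% of all genes, and 1 lower beside 16.2%. Between day 12 and day 1, 3 were called higher beside 10.6% of all genes, and 0 lower beside 8.53%. The median log2 fold change of the 9 genes was -0.05, 0.12 and 0.16 in these comparisons, and that of all genes tested was -0.01, 0.01 and 0.01.

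**Figure D1:**
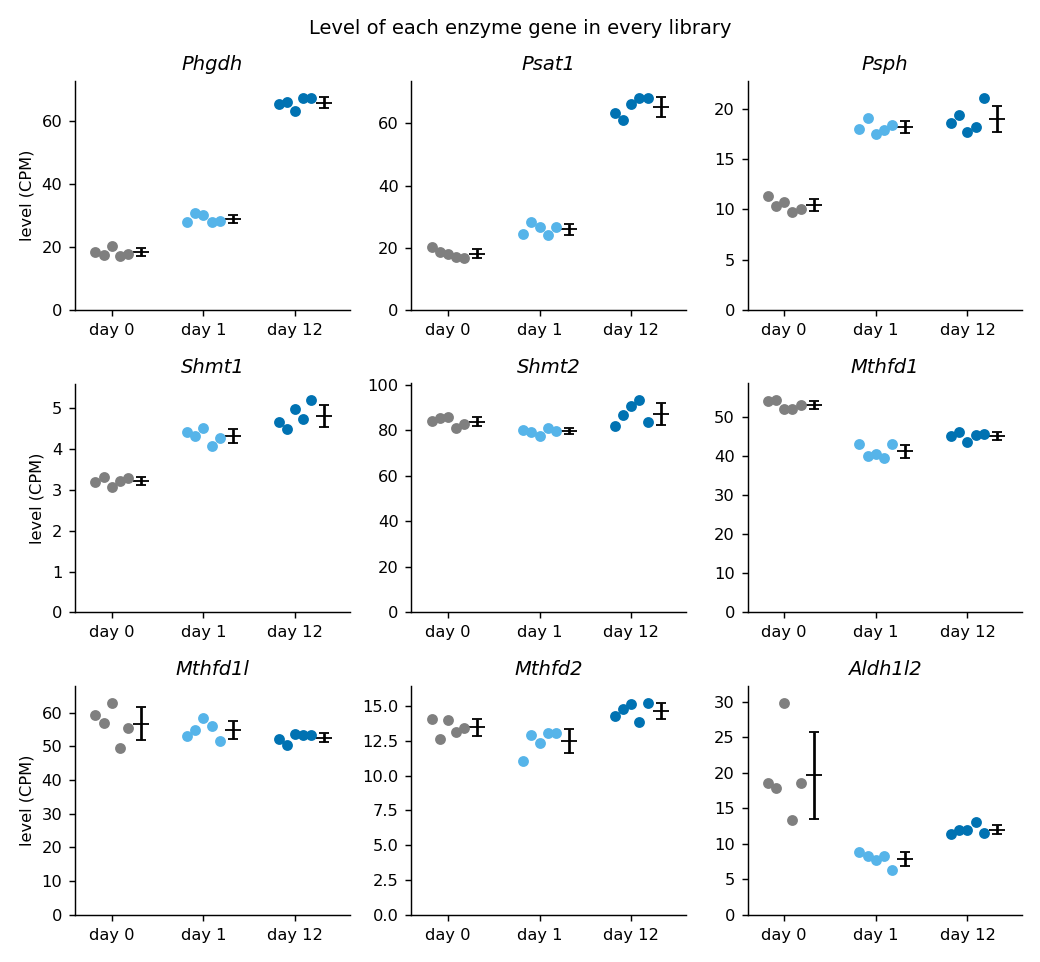
Level in CPM (linear vertical axes from 0, a scale of its own for each gene) of the 9 enzyme genes in every library at days 0, 1 and 12 at 31°C. Points are libraries and bars are the mean ± SD of 5 libraries. The 3 groups of *Phgdh* and of *Psat1* do not overlap, the cooled groups of *Psph* overlap each other above day 0, and *Aldh1l2* at day 0 spreads from 13.4 to 29.8 CPM.

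*Phgdh* encodes the enzyme of the first step of serine synthesis and lies at chr3:98313170-98339990 on the minus strand (GRCm38). Its level in day 0 replicates 1 to 5 was 18.6, 17.6, 20.5, 17.1 and 17.96 CPM. At day 1 the same order of replicates gave 27.96, 30.7, 30.1, 28.1 and 28.3 CPM, and at day 12 65.7, 66.1, 63.3, 67.4 and 67.4 CPM. The 3 groups did not overlap, and the highest day 0 library was below the lowest day 1 library. The mean went from 18.4 ± 1.31 to 29.1 ± 1.29 and 66.0 ± 1.71 CPM (SD, n = 5), so that the log2 fold change against day 0 was 0.66 (SE 0.043, adjusted p = 1.22e-12 by edgeR) after 1 day and 1.84 (SE 0.042, adjusted p = 1.95e-21) after 12 days. The day 12 group was also above the day 1 group, by 1.18 (SE 0.041, adjusted p = 1.32e-17). The mouse genome holds 9 processed pseudogenes of *Phgdh* with 95.3% to 98.7% identity over up to 1608 bases, and reads that fit these equally well could have been lost in counting, so the absolute level of *Phgdh* is uncertain.

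*Psat1*, the aminotransferase of the second step, lies at chr19:15904678-15947337 on the minus strand. Day 0 replicates 1 to 5 had 20.4, 18.6, 18.1, 16.9 and 16.7 CPM, day 1 replicates 24.4, 28.1, 26.8, 23.95 and 26.6 CPM, and day 12 replicates 63.2, 60.99, 66.1, 68.02 and 68.1 CPM. As for *Phgdh*, all groups were separate. At day 12 the mean was 65.3 ± 3.13 CPM against 18.1 ± 1.49 (SD, n = 5) in the day 0 group, or 1.84 as log2 fold change (SE 0.052, adjusted p = 8.04e-20 by edgeR). At day 1 the mean was 26.0 ± 1.75 CPM, and the log2 fold change of 0.52 (SE 0.052, adjusted p = 4.14e-09) passed the p threshold but stayed under the fold limit. Between day 1 and day 12 *Psat1* rose by 1.33 (SE 0.051, adjusted p = 7.02e-17). Of all genes tested, 290 had a larger log2 fold change than *Psat1* at day 12 against day 0, and 291 had a larger one than *Phgdh*.

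*Psph*, the phosphatase that completes the pathway, lies at chr5:129765558-129787449 on the minus strand. Its levels were 11.3, 10.3, 10.7, 9.71 and 10.02 CPM at day 0, 17.95, 19.1, 17.5, 17.9 and 18.4 CPM at day 1 and 18.5, 19.4, 17.7, 18.2 and 21.1 CPM at day 12. Libraries of both cooled groups lay above all day 0 libraries, and the cooled groups overlapped each other. The mean rose from 10.4 ± 0.620 to 18.2 ± 0.594 CPM at day 1 (SD, n = 5), by 0.80 on the log2 scale (SE 0.052, adjusted p = 1.19e-12 by edgeR), and was 19.0 ± 1.32 CPM at day 12, 0.86 above day 0 (SE 0.051, adjusted p = 1.57e-13). The difference between day 12 and day 1 was 0.06 (SE 0.050, adjusted p = 0.269). Of the exon bases of *Psph*, 10.4% are shared with *Cct6a* on the opposite strand, a chaperonin subunit gene with log2 fold changes of 0.53 at day 1 and 0.50 at day 12, and whether the reads were counted by strand is not given in the sources used here.

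**Figure D2:**
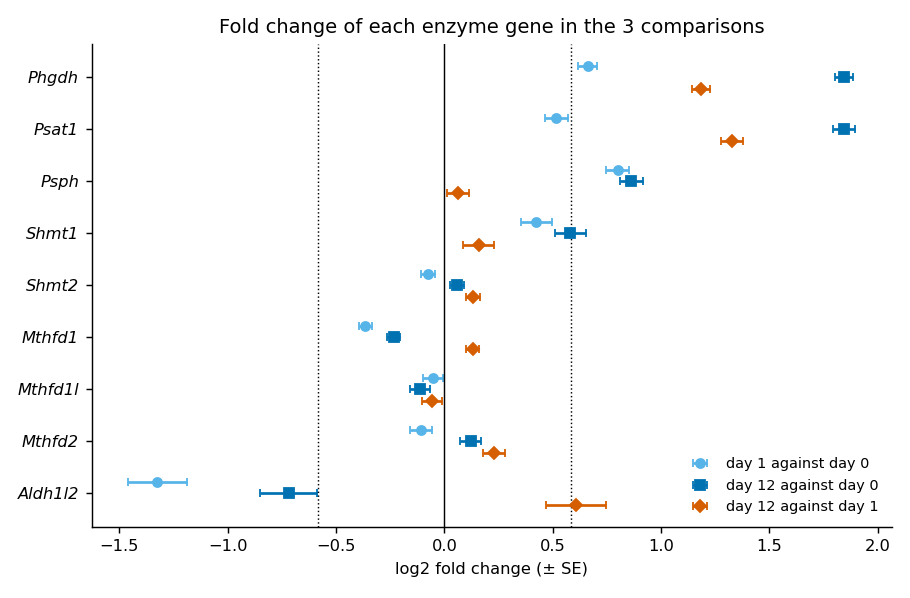
Log2 fold change (horizontal axis) with its SE from the edgeR fit for each enzyme gene in the 3 comparisons. Dotted lines mark the fold limit of 1.5 in either direction. At day 12 *Phgdh* and *Psat1* both stand at 1.84, *Shmt1* lies on the limit at 0.58 and *Aldh1l2* is at -0.72.

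*Shmt1*, the cytosolic hydroxymethyltransferase at chr11:60788104-60811718 (minus strand), was the least expressed of the 9 genes per kilobase at day 0 and day 12. Its level was 3.07 to 3.31 CPM at day 0, 4.07 to 4.50 at day 1 and 4.49 to 5.18 at day 12. Every cooled library was above every day 0 library. The log2 fold change was 0.42 (SE 0.073, adjusted p = 1.38e-05 by edgeR) at day 1 and 0.582 (SE 0.072, adjusted p = 9.44e-08) at day 12. The day 12 value fell just short of the fold limit and passed it without any 1 of 5 libraries (day 0 replicates 2 and 5, day 12 replicates 1, 2 and 4), at 0.59 to 0.61. With *Smcr8* on the opposite strand *Shmt1* shares 4.74% of its exon bases.

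*Shmt2*, the mitochondrial counterpart at chr10:127517123-127522444 (minus strand), had the highest mean level per kilobase of the 9 genes in every group. Its level was 80.9 to 85.9 CPM at day 0, 77.4 to 81.1 at day 1 and 81.9 to 93.1 at day 12. Its log2 fold changes were small, -0.08 (SE 0.032, adjusted p = 0.0383 by edgeR) at day 1 and 0.06 (SE 0.032, adjusted p = 0.112) at day 12. Day 12 libraries lay 0.13 above day 1 libraries (SE 0.032, adjusted p = 0.000882). An overlap of 1.03% of its exon bases with *Ndufa4l2* on the opposite strand stands beside a fall of that neighbour from 537 to 103 CPM at day 12, and the part of this in the *Shmt2* counts was not tested.

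*Mthfd1*, the trifunctional cytosolic enzyme at chr12:76255298-76319803 (plus strand), was the cytosolic gene with lower values in the cooled cells. Its level was 52.1 to 54.2 CPM at day 0, 39.5 to 43.05 at day 1 and 43.6 to 46.05 at day 12, and all day 0 libraries were above all cooled libraries. The log2 fold change was -0.36 (SE 0.031, adjusted p = 2.01e-10 by edgeR) at day 1 and -0.23 (SE 0.031, adjusted p = 2.69e-07) at day 12, both within the fold limit. Under scaling by *Hprt* and *Tbp* the day 12 value of *Mthfd1* turned to 0.03, where the median of all genes tested was 0.27, and under scaling by 4 reference genes it turned to 0.60, where that median was 0.85.

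*Mthfd2*, at chr6:83305691-83325908 (minus strand), and *Mthfd1l*, at chr10:3973118-4167081 (plus strand), act in sequence in mitochondria. *Mthfd2* was 12.6 to 14.1 CPM at day 0, 11.1 to 13.04 at day 1 and 13.8 to 15.2 at day 12, with log2 fold changes of -0.11 (adjusted p = 0.0604 by edgeR) and 0.12 (adjusted p = 0.0348) against day 0. *Mthfd1l* was 49.4 to 62.8, 51.5 to 58.3 and 50.3 to 53.7 CPM, with -0.05 (adjusted p = 0.312) and -0.11 (adjusted p = 0.0331). For both genes the day 0 range overlapped those of the cooled groups. Day 12 libraries of *Mthfd2* lay above day 1 libraries without overlap, by 0.23 (adjusted p = 0.000384 by edgeR). For *Mthfd1l* this difference was -0.06 (adjusted p = 0.276 by edgeR). The direction of *Mthfd1l* at day 12 depended on scaling, being 0.08 with total counts, 0.15 with *Hprt* and *Tbp* and 0.73 with 4 reference genes. The medians of all genes tested were then 0.21, 0.27 and 0.85, above *Mthfd1l* each time.

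*Aldh1l2*, the mitochondrial formyltetrahydrofolate dehydrogenase at chr10:83487450-83534140 (minus strand), was the gene called lower past the fold limit. Day 0 replicates 1 to 5 had 18.6, 17.8, 29.8, 13.4 and 18.6 CPM, and replicate 3 stood above the other day 0 libraries. The levels were 8.86, 8.29, 7.70, 8.30 and 6.29 CPM at day 1 and 11.5, 11.96, 11.96, 13.01 and 11.5 CPM at day 12. Day 1 libraries were below all others, and day 12 libraries were below all day 0 libraries. The mean fell from 19.7 ± 6.11 to 7.89 ± 0.984 CPM at day 1 (SD, n = 5), with a log2 fold change of -1.32 (SE 0.136, adjusted p = 4.87e-09 by edgeR). At day 12 it was 12.0 ± 0.633 CPM, with -0.72 against day 0 (SE 0.131, adjusted p = 2.63e-05) and 0.61 against day 1 (SE 0.139, adjusted p = 0.000479).

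The call for *Aldh1l2* at day 12 against day 0 did not hold when day 0 replicate 3 was left out (-0.52) or total counts set the scale (-0.52), and the direction turned to 0.12 when 4 reference genes set the scale. The median of all genes tested was 0.21 with total counts and 0.85 with 4 reference genes, so *Aldh1l2* stayed below it under both. The rise between day 1 and day 12 fell under the fold limit when day 1 replicate 5 (0.53) or day 12 replicate 4 (0.58) was left out. *D10Wsu102e* on the opposite strand shares 14.1% of the exon bases of *Aldh1l2* and had log2 fold changes of 0.38 at day 1 and 0.92 at day 12. Day 0 replicate 3 was also the highest of the day 0 libraries for 14 of 28 genes of a list of ATF4 and its targets, for 4 of the 9 enzyme genes and for 22.8% of all genes tested, and the part of this in the *Aldh1l2* result was not tested.

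Without the fold limit, at adjusted p under 0.05 by edgeR alone, the day 1 group had 4 of the 9 genes higher and 3 lower, where 35.3% of all genes were higher and 36.2% lower. At day 12 the numbers were 5 higher and 3 lower, beside 39.2% and 37.4% of all genes. Between day 12 and day 1, 6 were higher and 0 lower, beside 34.3% and 32.8%.

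Per kilobase of exon the order of the genes changed with cooling. At day 0 *Shmt2* was highest at 26.96 ± 0.647 CPM per kilobase (SD, n = 5), followed by *Mthfd1l* at 12.8 ± 1.13 and *Mthfd1* at 12.0 ± 0.231, whose ranges overlapped. *Phgdh* was at 7.38 ± 0.527 and *Psat1* at 4.27 ± 0.349. The ranges of *Psat1* and *Mthfd2*, of *Mthfd2* and *Aldh1l2*, and of *Aldh1l2* and *Psph* overlapped, and *Shmt1* was below all of them at 0.828 ± 0.0242. At day 1 *Phgdh*, at 11.7 ± 0.518, had passed *Mthfd1* and overlapped *Mthfd1l*. At day 12 *Phgdh*, at 26.5 ± 0.686, overlapped *Shmt2* at 28.1 ± 1.503, and *Psat1* was next at 15.3 ± 0.736. Merged exon length includes rarely used exons, so these levels depend on the annotation.

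The genes were then summed by branch, on the same scale of CPM per kilobase. The serine synthesis sum of *Phgdh*, *Psat1* and *Psph* was 14.1 ± 0.838 (SD, n = 5) at day 0, 21.99 ± 0.971 at day 1 and 46.3 ± 1.31 at day 12. The mitochondrial folate sum of *Shmt2*, *Mthfd2*, *Mthfd1l* and *Aldh1l2* was 46.2 ± 2.56, 42.6 ± 0.660 and 45.7 ± 1.67, with day 0 and day 12 ranges that overlapped. The cytosolic sum of *Shmt1* and *Mthfd1* was 12.8 ± 0.246, 10.4 ± 0.391 and 11.4 ± 0.197. At day 12 the range of the serine synthesis sum overlapped that of the mitochondrial folate sum, while at day 0 it lay just above that of the cytosolic sum.

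Ratios of 2 genes within a library do not depend on scaling, and 6 ratios were compared in 3 comparisons by a two-sided exact permutation test over libraries with adjustment over the 18 tests. The smallest p that 5 against 5 libraries allow is 0.00794. Between steps of serine synthesis, the count ratio of *Psat1* to *Phgdh* was 0.991 ± 0.0883 at day 0 and 0.990 ± 0.0476 at day 12 (SD, n = 5), with a log2 difference of 0.0015 (adjusted p = 0.992, exact permutation test). At day 1 this ratio was 0.894 ± 0.0343, a difference from day 0 of -0.14 that did not pass (adjusted p = 0.0816, exact) and from which day 12 differed by 0.15 (adjusted p = 0.0286, exact). The ratio of *Psph* to *Phgdh* was 0.569 ± 0.0320 at day 0, 0.626 ± 0.0267 at day 1 and 0.287 ± 0.0162 at day 12. It was higher at day 1 than at day 0 by 0.14 (adjusted p = 0.0357, exact) and lower at day 12 by 0.98 than at day 0 and by 1.12 than at day 1 (adjusted p = 0.0204 for both, exact).

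Across compartments, the ratio of mitochondrial *Shmt2* to cytosolic *Shmt1* counts went from 26.1 ± 1.16 (SD, n = 5) to 18.5 ± 0.978 at day 1 and 18.2 ± 1.43 at day 12. The log2 difference from day 0 was -0.50 at day 1 and -0.52 at day 12 (adjusted p = 0.0204 for both, exact permutation test), and day 12 and day 1 differed by -0.02 (adjusted p = 0.748, exact). *Mthfd2* over *Mthfd1* moved toward the mitochondrial enzyme, from 0.254 ± 0.0133 to 0.304 ± 0.0283 and 0.325 ± 0.0160, by 0.26 (adjusted p = 0.0357, exact) and 0.36 (adjusted p = 0.0204, exact) on the log2 scale. The log2 ratio of *Mthfd1l* to *Mthfd1* was higher at day 1 than at day 0 by 0.32 and lower at day 12 than at day 1 by 0.19 (adjusted p = 0.0286 for both, exact), and its difference of 0.13 between day 12 and day 0 did not pass (adjusted p = 0.0952, exact). *Aldh1l2* over *Mthfd1* fell from 0.371 ± 0.119 to 0.192 ± 0.0266 at day 1 and was 0.266 ± 0.0152 at day 12, log2 differences from day 0 of -0.91 (adjusted p = 0.0204, exact) and -0.43 (adjusted p = 0.0440, exact). The day 12 difference of *Aldh1l2* over *Mthfd1* no longer passed in 10 of 17 alternatives. These included leaving out day 0 replicate 1, 2, 3 or 5 or any day 12 library. Adjusted p was then 0.0549 to 0.0918 (exact), and without day 0 replicate 3 the difference was -0.26. The ratio of *Psph* to *Phgdh* at day 1 no longer passed in 7 of 16 alternatives. These left out day 0 replicate 3, 4 or 5 or day 1 replicate 1, 2, 4 or 5. Adjusted p was then 0.0510 to 0.0659 (exact), and without day 0 replicate 3 the difference was 0.11.

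**Figure D3:**
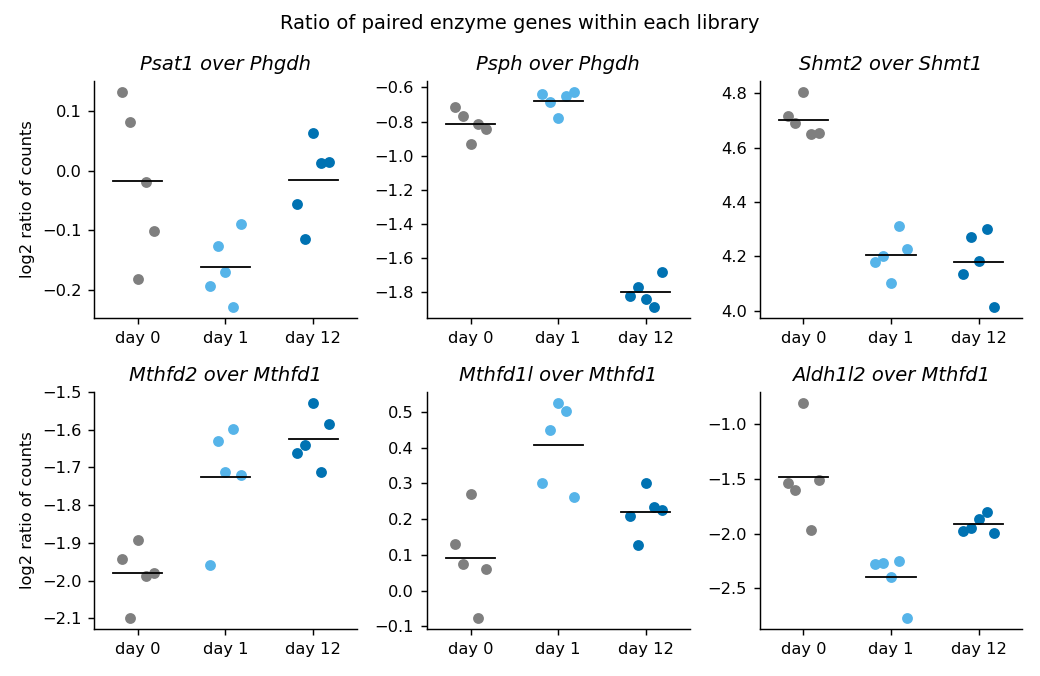
Log2 ratio of the counts of paired enzyme genes (vertical axes, each with its own range, none starting at 0) in every library at days 0, 1 and 12. Points are libraries and lines are means of 5. The *Shmt2* to *Shmt1* ratio is lower in both cooled groups, and the *Psph* to *Phgdh* ratio is lower at day 12 alone.

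The rest of folate metabolism was described with lists of related genes, by counts and medians. Every list count from here on has to be set against how often any tested gene was called. In comparisons with day 0, the share of all tested genes called higher went from 7.71% after 1 day to 13% after 12 days. The share called lower went from 13.4% to 16.2%. Of 15 tested folate enzymes and carriers outside the 9 genes, day 1 brought 0 higher calls and 1 lower call, and day 12 brought 2 higher calls and 1 lower call against day 0. *Mthfd2l*, a mitochondrial relative of *Mthfd2*, rose from 7.98 ± 0.90 to 13.8 ± 0.52 CPM at day 12 (log2 fold change 0.79, adjusted p = 2.97e-10 by edgeR), and *Tyms*, the thymidylate synthase, rose by 1.01 (adjusted p = 6.46e-13). *Aldh1l1*, the cytosolic relative of *Aldh1l2*, fell from 126 ± 1.5 to 65.8 ± 2.1 CPM at day 12 (log2 fold change -0.94, adjusted p = 2.44e-19), and at day 1 its value of -0.30 was within the fold limit. The mitochondrial folate carrier *Slc25a32* had a day 12 value of 0.25 and was called in neither comparison with day 0.

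Genes that take up, move or use serine and glycine were called in both directions. Of 22 tested, 6 were higher and 7 lower at day 12 against day 0, with a median log2 fold change of 0.08. *Slc7a10*, a transporter of small neutral amino acids, fell from 3.30 ± 0.22 to 0.0825 ± 0.043 CPM, and *Slc1a5*, a neutral amino acid transporter, fell from 336 ± 14 to 169 ± 4.4 CPM. *Sfxn2*, of the sideroflexin family, rose by 1.24 (adjusted p = 1.07e-14 by edgeR), while *Sfxn1*, a mitochondrial serine transporter, had a value of 0.06 (adjusted p = 0.0843). Of 8 tested genes of glycine cleavage and sarcosine breakdown, day 1 brought 1 higher call and 3 lower calls, and day 12 brought 2 calls, both lower. *Gcat*, which makes glycine from threonine breakdown products, fell by 1.61 at day 1 and by 0.84 at day 12, and *Amt*, a subunit of the glycine cleavage system, fell by 0.96 and 0.63. *Gldc*, its decarboxylase, had at most 55 counts in any library.

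Calls in pathways that use one-carbon units or serine are read beside the shares of all genes tested at day 12, 13% higher and 16.2% lower. Of 13 tested genes of purine synthesis, 1 was higher and 3 lower at day 12, and the synthetases *Prps1* and *Prps2* fell by 1.14 and 0.85. Of 15 tested genes of the methionine cycle and transsulfuration, 1 was higher and 3 lower at day 12. *Cbs*, which joins serine to homocysteine, fell by 1.87 on the log2 scale (adjusted p = 1.89e-10 by edgeR), and *Cth*, which acts next to form cysteine, fell by 1.43 (adjusted p = 2.41e-11). *Pemt*, a methyltransferase of phosphatidylcholine synthesis, rose by 1.48 (adjusted p = 4.28e-08).

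**Figure D4:**
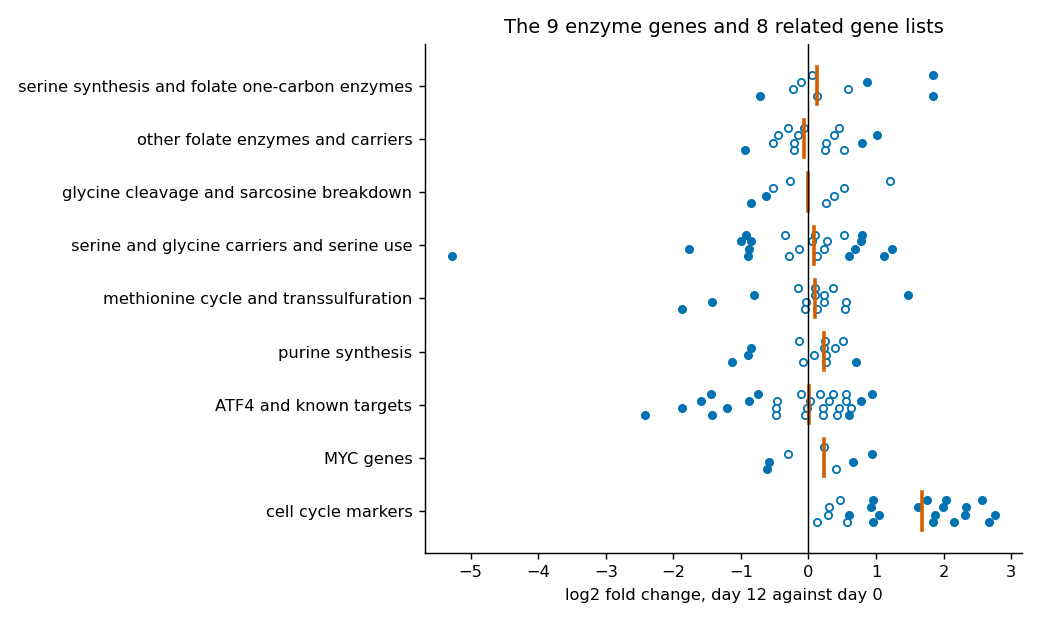
Log2 fold change at day 12 against day 0 (horizontal axis) for each tested gene of the 9 enzyme genes and 8 related lists. Filled points were called, open points were not, and orange lines are list medians, 0.12 for the 9 enzyme genes, 0.01 for ATF4 and its targets and 1.69 for cell cycle markers.

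Genes of the 2 factors known to act on this pathway were read beside it. *Atf4* rose by 0.72 at day 1 (SE 0.031, adjusted p = 6.30e-16 by edgeR) and had a value of 0.43 at day 12, within the fold limit. Of 28 tested genes of ATF4 and its targets outside the 9 enzymes, day 1 brought 3 higher calls and 5 lower ones and day 12 brought 3 and 8, with medians of 0.10 and 0.01. The list members with the largest called changes at day 12 fell, *Gdf15* by 2.42, *Stc2* by 1.87 and *Ddit4* by 1.59. The 3 called higher at day 12, chosen after their values were seen, were the amino acid transporter genes *Slc7a5* (0.94) and *Slc7a11* (0.77) and the glycyl-tRNA synthetase gene *Gars* (0.59). *Myc* rose from 21.96 ± 0.66 to 42.2 ± 1.3 CPM at day 12 (log2 fold change 0.94, adjusted p = 8.78e-17) and had a value of 0.48 at day 1. Of 7 tested genes of the MYC network 2 were higher and 2 lower at day 12, where the antagonists *Mxi1* and *Mxd1* fell by 0.62 and 0.59.

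At day 12 most cell cycle markers were called higher, as *Phgdh* and *Psat1* were. Of 22 tested, day 1 brought 4 higher calls and 1 lower call and day 12 brought 17 and 0, with a median log2 fold change of 1.69 at day 12. Their summed level was 235 to 270 CPM at day 0, 299 to 320 at day 1 and 490 to 551 at day 12, and *Tk1*, *Ccnb2* and *Birc5* rose by 2.77, 2.67 and 2.57. The summed level of 9 mesothelial markers, 5 of them tested, was 10.0 to 11.7, 13.04 to 15.4 and 29.9 to 44.3 CPM. That rise was almost all from *Msln*, which went from 0.628 ± 0.25 to 29.3 ± 5.9 CPM at day 12, while the list median was 0.04, no other marker of the list was called at day 12 and *Krt8* had a value of -0.56. Of 8 tested progenitor and fibroblast markers 0 were called higher and 2 lower at day 12, *Ly6a* by 1.42 and *Lum* by 1.13, while *Pdgfrb* and *Pdgfra* had values of 0.49 and 0.34. Their sum, mostly *Dcn*, *Lum* and *Col1a1*, was 12598 to 12909 CPM at day 0 and 9295 to 9728 at day 12. Of 6 tested muscle and cartilage markers 0 were higher and 4 lower at day 12, and their sum, mostly *Comp*, was 3673 to 4404 and 1129 to 1223 CPM.

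Low sums of other cell types held single genes that were called at day 12. Of 6 tested endothelial markers 3 were higher and 2 lower, among them *Erg* (1.82) and *Egfl7* (-1.02), with sums of 9.66 to 11.3 CPM at day 0 and 8.61 to 10.5 at day 12. Of 6 tested macrophage markers 2 were higher and 0 lower, *Csf1r* by 1.47 and *Lyz2* by 1.07, with sums of 26.7 to 33.9 and 30.2 to 34.5, and of 42.5 to 48.7 at day 1. Of 4 tested keratinocyte markers 1 was higher, *Krt10*, and 0 lower, with sums of 95.1 to 103 and 111 to 118. None of the markers in the table was at 0 in all libraries, and the part of any of these lists in the enzyme results was not tested.

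Genes whose log2 CPM was most like that of each enzyme gene over the 15 libraries were found among 12123 genes, as a description that rests largely on the 3 group means. For *Psat1* these were *Cdc20* (Pearson r = 0.9977) and *Kif20a* (0.9961), both of mitosis, and for *Phgdh* they were *Kif1c* (0.9951), a motor protein, and *Cdc20* (0.9942). *Psph*, with its single step at day 1, was most like *Noc4l* (0.9891) and *Inpp5k* (0.9882). *Shmt1* was most like *5033414D02Rik* (0.9909) and *Uvrag* (0.9899), and *Mthfd1* like *Zfp672* (0.9923) and *Xrcc4* (0.9870). *Aldh1l2* was most like *4732471D19Rik* (0.9562) and *Fam168a* (0.9516). The genes with small group differences had lower values, *Shmt2* with *Nelf* (0.9321) and *Mink1* (0.8975), *Mthfd2* with *Nme6* (0.9243) and *Slc12a2* (0.8797), and *Mthfd1l* with *Lgals3* (0.8116) and *Bc1* (0.7986).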

How the data were processed

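RNA sequencing counts of 15 libraries in 3 groups of 5 were used, grouped by their labels. Per the submitters' processing notes and the study's methods, reads were aligned with TopHat 2.0.13 and Bowtie2 2.2.1 to mm10 and counted per gene with HTSeq. The deposited table holds raw counts. Deposited DESeq2 tables of log2 fold changes and p-values and a table of regularized log2 values were not used. Genes were filtered with filterByExpr (minimum count 10), scaled by TMM and tested in a single fit of all libraries by quasi-likelihood (edgeR 4.0.16, R 4.3.3), adjusted over 14293 genes, and the fit was tested on simulated data. SE is the size of the log2 fold change over the square root of F. Log ratios had 0.5 added to each count. All columns of the table belong to these samples. A count of 0 would allow up to 0.0225 CPM in the deepest and 0.0464 in the shallowest library, for counting error only. No 2 libraries of a group agreed within sampling noise. Coordinates, exon lengths and overlaps are from the GENCODE vM21 annotation of GRCm38, the same build as mm10. Near copies were found with blastn 2.17.0 at 95% identity or more over at least 100 bases. The 9 genes and all lists were chosen with earlier results of these data known. From each list, up to 3 called genes with the largest day 12 change and a mean of at least 1 CPM were named, plus 10 fixed genes, some of which count in their lists but are not reported by name. Besides genes marked as chosen later or named for a sum, *Csf1r*, *Krt8*, *Pdgfra* and *Pdgfrb* were named outside this rule. *Csf1r* had a mean under 1 CPM in every group, and the other genes were not called at day 12. Alternatives covered scaling, filters, DESeq2 1.42.0, the fold limit, the replicate number as a block, the series of library numbers in the titles and leaving out each library.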

Additional observations from a re-analysis of the deposited data

Results flagged for a closer look

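In day 1 replicate 5 the log2 ratio of *Aldh1l2* to *Mthfd1* counts was -2.77, far below the other day 1 libraries. It was the 1 group flagged among 45 groups of 5 tested for a value apart from the rest, and chance flags about 1 in 20.

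Day 12 and day 1 libraries were compared directly with edgeR. For 3 genes the change after 12 days differed from that after 1 day past the fold limit, where 10.6% of all genes were called higher. The log2 difference was 1.18 for *Phgdh*, 1.33 for *Psat1* and 0.61 for *Aldh1l2*, and all 5 day 12 libraries were above all 5 day 1 libraries for each. Such separation was not particular to these genes. *Shmt2* (0.13), *Mthfd1* (0.13) and *Mthfd2* (0.23) also rose without overlap, at adjusted p under 0.05 but within the fold limit.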

How the results depend on the processing

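Of 699 member values under the alternatives, 656 kept their direction and their side of the thresholds, as did 259 of 294 values of the ratios, and *Phgdh* and *Psph* kept their calls against day 0 under every alternative run. Without the fold limit 4 of the 9 genes were higher and 3 lower at day 1, 5 and 3 at day 12, and 6 were higher between day 12 and day 1. *B2m* and *Gapdh* fell by 2.12 and 0.70 at day 12, so scaling by *Hprt* and *Tbp* alone was added after seeing the data. The median log2 fold change of all genes at day 12 against day 0 was 0.21 with total counts, 0.85 with 4 reference genes (*Hprt*, *Tbp*, *Gapdh*, *B2m*; 6 were planned) and 0.27 with *Hprt* and *Tbp*, and against day 1 it was 0.18, 0.80 and 0.34. The number lower at day 12 was then 0 under each, and with the reference genes 8 were higher against day 0 and 9 against day 1. Directions that turned against day 0 were those of *Mthfd1* (0.60 with reference genes, 0.028 with *Hprt* and *Tbp*), *Mthfd1l* (0.082 with total counts, 0.73 and 0.15) and *Aldh1l2* (0.12 with reference genes). *Mthfd1l* at day 12 against day 1 turned to 0.11, 0.73 and 0.28. *Aldh1l2* at day 12 against day 1 was under the limit with the library series as a covariate (0.58) and within the larger of the 2 series of library numbers (0.55). With each library left out in turn, the number lower at day 12 was 0 to 1. Within that series, at day 12 against day 0, the *Psat1* to *Phgdh* difference turned to -0.027, and *Psph* to *Phgdh* (-1.02), *Shmt2* to *Shmt1* (-0.49), *Mthfd2* to *Mthfd1* (0.35) and *Aldh1l2* to *Mthfd1* (-0.42) no longer passed the exact permutation test, whose adjusted p over 6 tests of 4 against 4 libraries was 0.0571 for the first 3 of these. Fewer libraries raise the smallest p this test allows, so these lost calls do not show a loss of the differences. With all libraries the differences were -0.98, -0.52, 0.36 and -0.43. With each library left out, log2 ratio differences that changed a call or direction were, against day 0, *Psph* to *Phgdh* at day 1 (0.11 to 0.16), *Psat1* to *Phgdh* at day 1 (-0.19 to -0.11) and day 12 (-0.040 to 0.039), *Mthfd2* to *Mthfd1* at day 1 (0.23 to 0.31), *Mthfd1l* to *Mthfd1* at day 12 (0.086 to 0.17) and *Aldh1l2* to *Mthfd1* at day 12 (-0.55 to -0.26), and between day 12 and day 1, *Mthfd1l* to *Mthfd1* (-0.23 to -0.16) and *Shmt2* to *Shmt1* (-0.055 to 0.017). The cause of these changes was not tested. Over all genes, a mean of at least 10 CPM left 419 higher and 745 lower at day 1, 637 and 1051 at day 12, and 413 and 485 between them. Against day 0 at day 12, 2982 were higher with total counts, 9745 higher and 642 lower with reference genes, and 3560 and 1500 with *Hprt* and *Tbp*, and between days 12 and 1 the last 2 gave 10237 and 253, and 3527 and 618. No strong pairing by replicate number was seen, as 0 of 15 same-numbered pairs correlated over 0.1 in their deviations (-0.0255 to 0.0436). However, 9 of 15 libraries were closest to their own number, and whether this is more than chance gives was not tested. The replicate block changed no call of the 9 genes (*Phgdh* at day 12 against day 0 was 1.85 with the block). A sign-flip test of the ratios in numbered pairs, whose smallest p is 0.0625, was not run, nor were ratio tests within the larger series at day 1, where too few libraries remain.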
